A study of Mus musculus with 6 samples.

Results

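The genes described here are those with clearly lower counts in livers whose hepatocytes received *Zrsr1*, once genes of lipid oxidation and synthesis, collagen and other matrix genes and Fanconi anemia genes had been set aside by name. A gene was taken when its mean count in the 3 TBG-*Zrsr1* mice, without rescaling between libraries, was below 2/3 of its mean in the 3 TBG-Vec mice. This left 90 of the 257 genes in the table. A further 18 genes below that threshold were among the 28 set aside. The mice were wild-type C57BL/6J animals fed a high-fat diet (HFD) for 13 weeks, and their ages are not given in the sources used here. TBG-*Zrsr1* mice had received, through the tail vein, an adeno-associated virus (AAV) carrying *Zrsr1* behind the TBG promoter, which restricts expression to hepatocytes, and TBG-Vec mice had received the vector control, named GFP in the library names. RNA from whole liver was enriched for polyadenylated transcripts and sequenced, so a lower count may reflect fewer cells of a type or less RNA per cell, and these cannot be told apart. Sums over the listed genes were 264103, 283414 and 281277 in TBG-Vec mice and 231429, 174448 and 227278 in TBG-*Zrsr1* mice, and because library depth is unknown, a difference in depth cannot be told apart from lower counts either.

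ZRSR1 is a splicing factor that helps recognise the 3′ end of minor introns, a rare class removed by the U12-dependent spliceosome, while nearly all introns are removed by the major spliceosome. In liver, the nuclear receptor LXR drives fatty acid synthesis through SREBP1c, and pyruvate kinase supplies carbon for the same pathway. *Zrsr1* itself was counted 194, 197 and 202 times in the TBG-Vec mice and 4383, 4479 and 4405 times in the TBG-*Zrsr1* mice. The library labels and the transgene therefore matched in all 6 mice, and the level of *Zrsr1* varied little among the mice that carried it.

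The 90 genes span many functions and most were rarely counted. Their mean counts in TBG-Vec mice ran from 29.0 to 5106, with a median of 72.5, against a median of 191 for the 84 lower genes that stayed at or above the threshold. Of the 90 genes, 59 had fewer than 100 counts on average in TBG-Vec mice, 25 had between 100 and 1000, and 6 had 1000 or more. Counting error alone was 20.9% of the value of 1 mouse at the lowest mean of 22.8 counts. In TBG-*Zrsr1* mice the genes lay between 38.3% and 66.6% of the TBG-Vec mean, with a median of 60.5%, and 15 lay below 50%. The median log2 ratio was −0.72, where that of all listed genes was −0.54. Genes under 100 counts and genes at or above 100 counts had nearly the same median, 60.7% and 60.3%. These ratios are what chose the genes and are given as a description.

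With edgeR's quasi-likelihood test, 90 of the 90 genes were called lower, and 42.0% of all genes in the table were called lower by the same rule. At an adjusted p under 0.05 alone, 192 genes were lower and 65 higher, which is all 257 genes in the table. The fold threshold alone therefore decided each call, and the 108 genes called lower were as many as had a mean below 2/3. All TBG-*Zrsr1* mice lay below all TBG-Vec mice in 89 genes, where 73.9% of all listed genes were lower without overlap. The exception was *Fras1*, a basement membrane gene with 43, 34 and 45 counts in TBG-Vec mice and 34, 24 and 22 counts in TBG-*Zrsr1* mice, so that 1 mouse of each group shared a value. Over the whole table, the groups overlapped in only 2 of the 257 genes. A lack of overlap given below for a single gene therefore does not set it apart. With DESeq2 size factors, TMM and equal totals over the listed genes, the test called 11, 9 and 14 of the 90 genes lower, and 13, 10 and 17 of all 257 genes (5.06%, 3.89% and 6.61%), beside 65 higher. Without TBG-*Zrsr1* mouse 2, it called 53 of the 90 genes lower, and 67 of all 257 (26.1%). Nothing is read from these counts, or from the calls per gene list below, because the same contrast chose the genes.

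**Figure D1:**
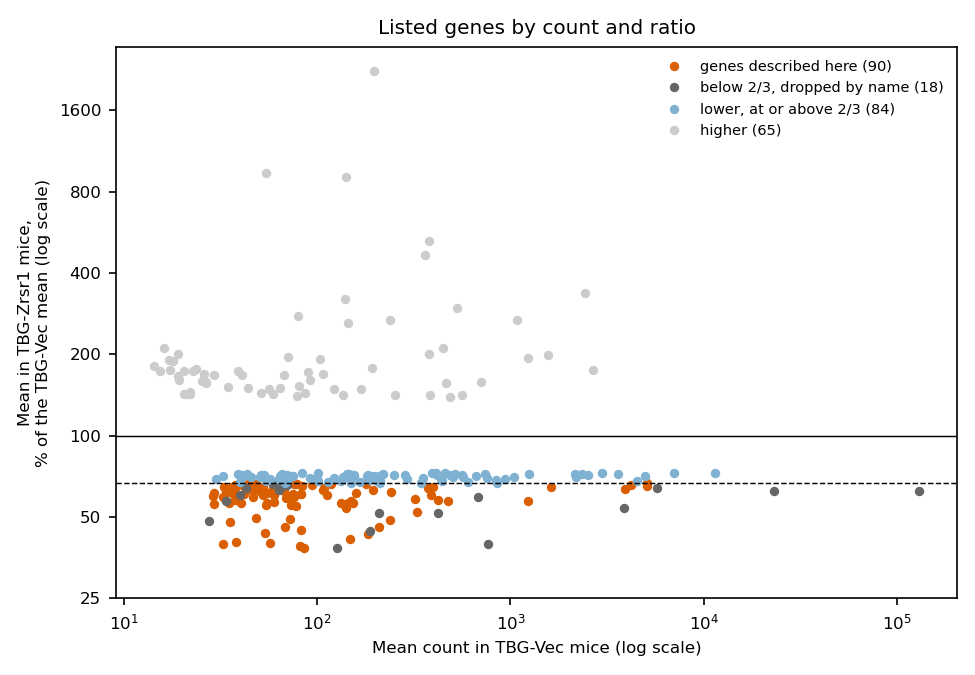
Each point is 1 of the 257 listed genes, placed by its mean count in TBG-Vec mice (x axis, log scale) and by its mean in TBG-Zrsr1 mice as a percentage of that mean (y axis, log scale), with a dashed line at 2/3 and a solid line at 100%. The 90 genes described lie between 38.3% and 66.6%, mostly at the low end of the count axis.

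The lowest ratio belonged to *Pnldc1*, which encodes an exonuclease that trims the 3′ ends of piRNAs. It had 90, 100 and 66 counts in the TBG-Vec mice and 33, 17 and 48 counts in the TBG-*Zrsr1* mice, or 38.3% of the TBG-Vec mean. All 3 TBG-*Zrsr1* mice lay below all 3 TBG-Vec mice, with mouse 2 the lowest, and without mouse 2 the mean was 47.5%. *Raet1d*, a ligand of the activating receptor NKG2D on natural killer cells, had 103, 80 and 60 counts against 32, 15 and 48 counts. This gene shares 53.2% of its exonic bases with *Raet1e* on the same strand, so the counts cannot separate the pair. *Wfdc2*, a secreted WAP-domain protein, had 133, 133 and 179 counts in TBG-Vec mice and 72, 28 and 85 counts in TBG-*Zrsr1* mice. Mouse 2 held 35.7% of the mean of the other 2 mice for *Wfdc2*, a smaller share than for any other of the 90 genes. *Tlr12*, a Toll-like receptor, had 191, 231 and 207 counts against 116, 59 and 113. *Tmem254c*, a transmembrane protein of undescribed function, had 161, 228 and 158 counts against 86, 67 and 84. In *Tmem254c* the TBG-*Zrsr1* mice lay close together, so its low ratio of 43.3% moved only to 46.6% without mouse 2.

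The other genes among the 10 lowest were *Mmd2*, *Lhx6*, *Dcaf12l1* and a pair of long non-coding RNAs. *Mmd2*, of the PAQR family of membrane proteins, had 52, 60 and 58 counts in TBG-Vec mice and 23, 14 and 31 counts in TBG-*Zrsr1* mice. *Lhx6*, a LIM homeobox transcription factor known from interneurons, had 65, 74 and 109 counts against 40, 29 and 42. *Dcaf12l1*, whose product resembles a substrate receptor of ubiquitin ligases, had 46, 57 and 58 counts against 29, 16 and 25. Mouse 2 was again the lowest in each of these genes, and the groups stood apart in each. The long non-coding RNAs *Gm31522* and *Gm30692* were at 39.8% and 40.4% of the TBG-Vec mean. Their lowest counts were 8 and 9, both in TBG-*Zrsr1* mouse 2, so their ratios rest on few counts.

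At the threshold the values formed no gap. Just inside it lay *Slc16a11*, of the monocarboxylate transporter family, at 66.4%, *Serinc2* at 66.5% and *Pklr* at 66.6%. Just outside lay *Ppcdc*, an enzyme of coenzyme A synthesis, at 66.7%, whose ratio is exactly 2/3, followed by *Ccdc157* at 66.8% and the predicted gene *Gm26588* at 67.0%.

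Functional groups were written for the 90 genes after their names were known, and each gene was placed in 1 group. The largest were signalling, adhesion and excitability genes with 16 members and non-coding or predicted genes with 15. Immune, protease and coagulation genes followed with 11, and enzymes of carbohydrates, amino acids and nucleotides with 9. The median ratio of a group ran from 54.1% for the transcription and RNA regulators to 64.6% for the genes of DNA replication and repair. Markers of 11 cell types were looked for, and none was among the 90 genes. In the table were 2 of 11 stellate cell markers, *Col1a1* and *Col3a1*, and 1 of 6 adipocyte markers, *Cfd*. *Col1a1* had 93, 137 and 149 counts in TBG-Vec mice and 77, 28 and 41 counts in TBG-*Zrsr1* mice, and *Col3a1* had 348, 413 and 510 against 279, 176 and 203. These collagen genes, at 38.5% and 51.8% of the TBG-Vec mean, were called lower. *Cfd* had 375, 607 and 100 counts against 2397, 1024 and 1626 and was called higher, with a log2 ratio of 2.22. The part of such cells in the counts of the 90 genes was not tested. Of the hepatocyte markers 0 of 10 were in the table, as were 0 of 11 for macrophages, 0 of 9 for sinusoidal endothelium, 0 of 6 for cholangiocytes, 0 of 8 for T and NK cells, 0 of 7 for B cells, 0 of 6 for neutrophils, 0 of 5 for erythroid and 0 of 5 for cycling cells. *Cd163*, a macrophage gene outside that marker list and named after its values were seen, had 102, 108 and 60 counts in TBG-Vec mice and 148, 133 and 183 counts in TBG-*Zrsr1* mice and was called higher. The labelled tissue could therefore not be checked against hepatocyte markers on this table. Of 24 gene lists from general knowledge, 18 held at least 1 of the 90 genes, and 45 genes were in none. The list of cytochrome P450 genes and those of mitochondrial respiration and of ribosomal proteins had 0 genes in the table. Of all 257 genes, 42.0% were called lower and 18.7% higher. The list of predicted or unnamed genes had 29 in the table, with 14 called lower and 7 called higher (all genes 42.0% and 18.7%).

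**Figure D2:**
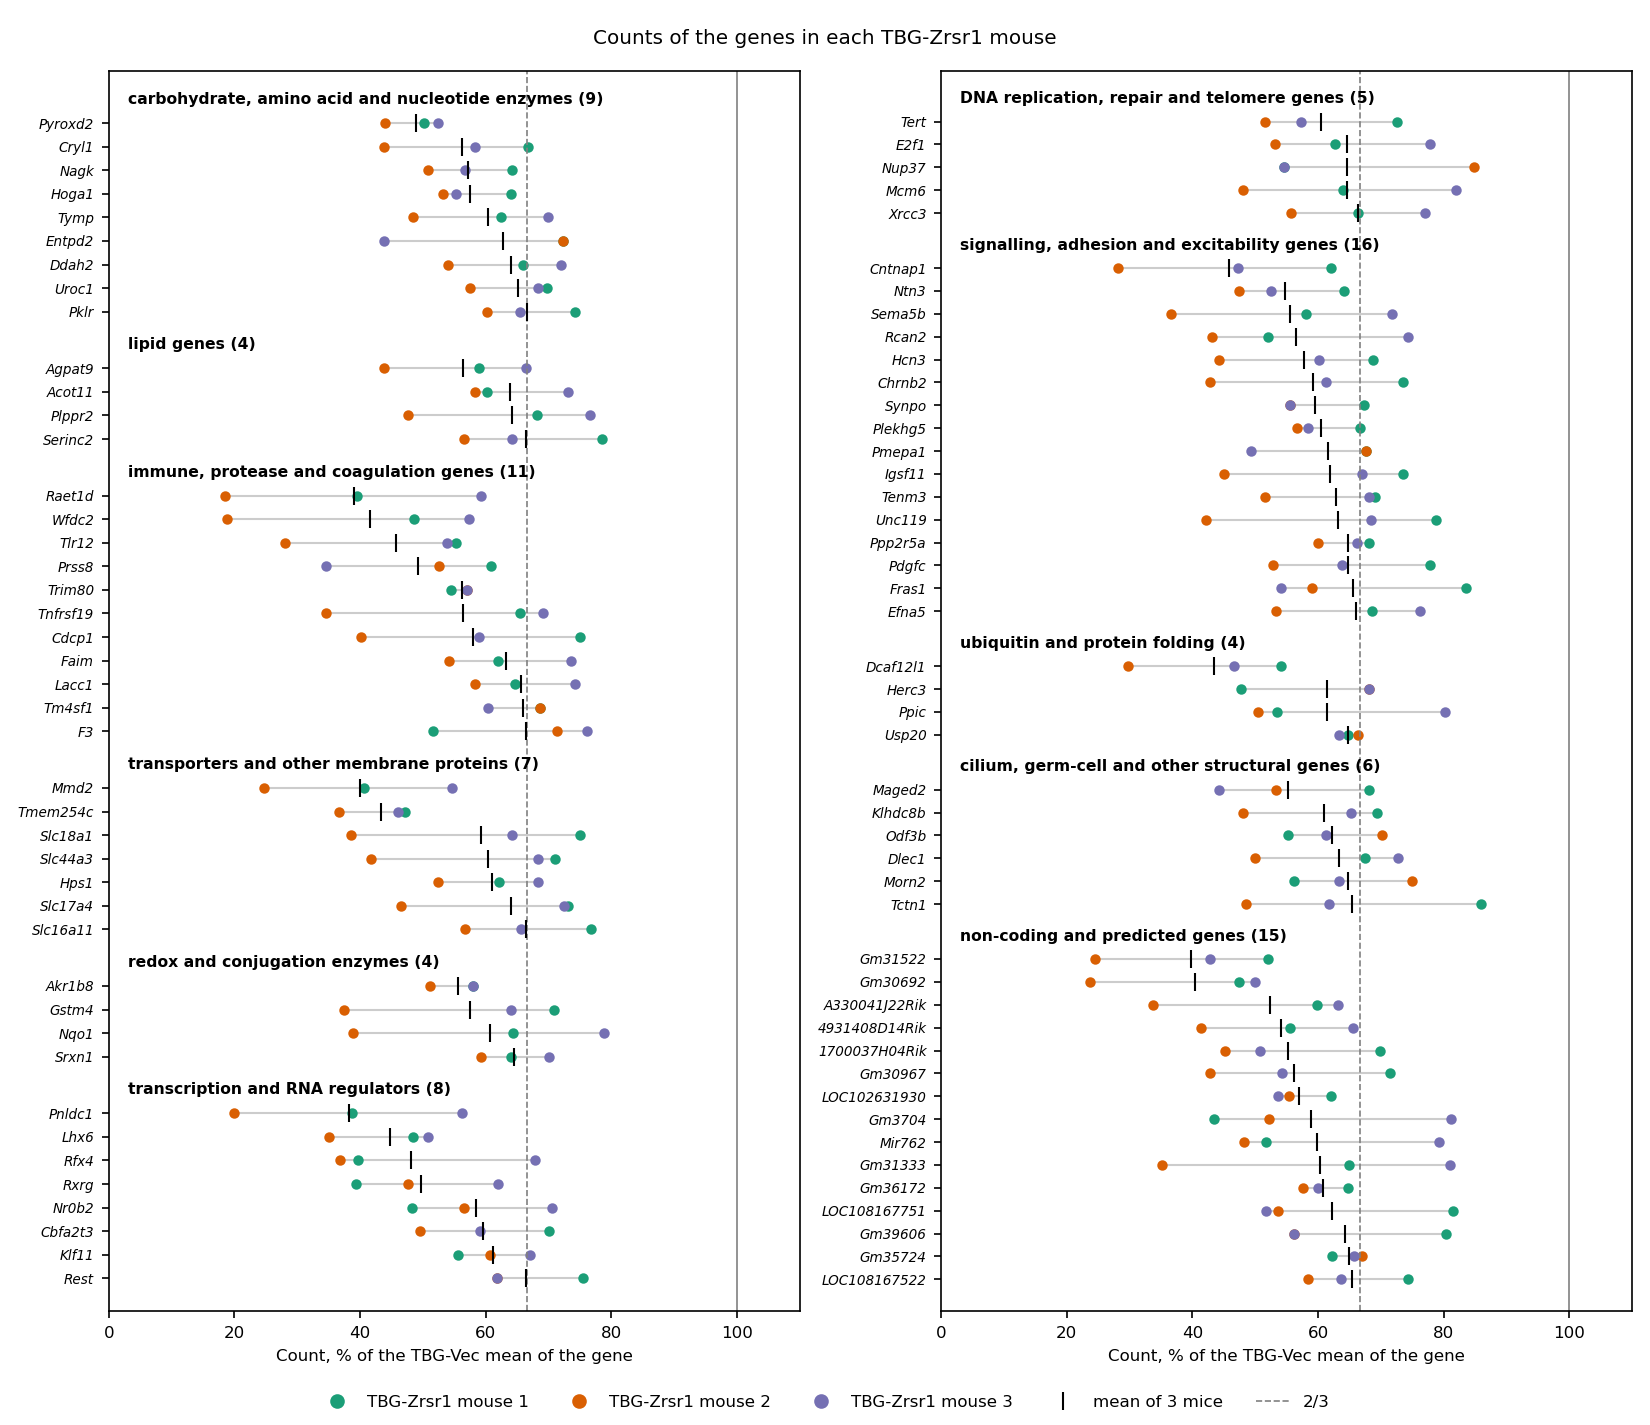
For 89 of the 90 genes, grouped by function with the number drawn in parentheses, points give the count in each TBG-Zrsr1 mouse as a percentage of the mean of the 3 TBG-Vec mice (x axis), the tick is the mean of the 3 points, the dashed line marks 2/3 and the solid line 100%. Mouse 2 is the lowest point for 66 of the 89 genes drawn.

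Among the metabolic enzymes were the genes with the most counts. *Uroc1*, urocanate hydratase of histidine breakdown, had 4725, 4848 and 5746 counts in TBG-Vec mice and 3567, 2941 and 3487 counts in TBG-*Zrsr1* mice. *Pklr*, the liver pyruvate kinase that completes glycolysis, had 4832, 6182 and 4253 counts against 3776, 3064 and 3329. *Hoga1*, a mitochondrial aldolase of hydroxyproline breakdown, had 1211, 1240 and 1229 counts against 786, 653 and 678. *Hoga1* was the tightest of these, with an SD of 14.6 counts around 1227 in TBG-Vec mice, and its TBG-*Zrsr1* mean was 57.5% of that. *Morn4*, on the opposite strand, covers 44.5% of the exonic bases of *Hoga1*. *Pyroxd2*, a mitochondrial oxidoreductase-domain protein, had the lowest ratio in the group, with 238, 199 and 279 counts against 120, 105 and 125. Its TBG-*Zrsr1* mice spread little and their mean was 48.9% of the TBG-Vec mean. The others were *Cryl1*, gulonate dehydrogenase of the uronate cycle, at 56.3%, *Nagk*, which phosphorylates N-acetylglucosamine, at 57.2%, and *Tymp*, thymidine phosphorylase, at 60.3%. *Entpd2*, an ectonucleotidase, and *Ddah2*, of the dimethylarginine dimethylaminohydrolase family, were at 62.8% and 64.0%, each with fewer than 50 counts on average.

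Only 4 of the 90 genes were assigned to lipid handling, since the lipid genes named by the selection had been set aside. *Agpat9*, now called *Gpat3*, encodes a glycerol-3-phosphate acyltransferase of triglyceride synthesis and had 131, 127 and 139 counts in TBG-Vec mice and 78, 58 and 88 counts in TBG-*Zrsr1* mice. *Acot11*, an acyl-CoA thioesterase, had 110, 127 and 87 counts against 65, 63 and 79. The groups stood apart in both genes, by 39 counts for *Agpat9* and by 8 for *Acot11*. *Plppr2*, related to phospholipid phosphatases, and *Serinc2*, of the serine incorporator family, were at 64.2% and 66.5%. Without mouse 2, 1 of the 4, *Agpat9*, was still below the threshold, and *Acot11* was exactly on it.

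The list of conjugation and antioxidant enzymes had 6 genes in the table, of which 4 were called lower and 1 higher (all genes 42.0% and 18.7%). The 4 were *Gstm4*, a glutathione S-transferase, *Srxn1*, sulfiredoxin, *Nqo1*, a quinone reductase, and *Akr1b8*, an aldo-keto reductase. *Gstm4* had 389, 485 and 544 counts in TBG-Vec mice and 335, 177 and 303 counts in TBG-*Zrsr1* mice. *Srxn1* had 380, 383 and 435 counts against 256, 237 and 280. *Nqo1* had 78, 76 and 93 counts against 53, 32 and 65. *Srxn1* was close to even over the TBG-*Zrsr1* mice, whereas in *Gstm4* and *Nqo1* mouse 2 held 55.5% and 54.2% of the mean of the other 2 mice. *Akr1b8* had a mean of 29.3 counts in TBG-Vec mice and 16.3 in TBG-*Zrsr1* mice. *Txnrd3*, a thioredoxin reductase at 70.8%, lay above the threshold, and *Mt2*, a metallothionein, was higher. Without mouse 2, *Akr1b8* alone of the 4 remained below 2/3. *Gstm4* belongs to a multigene family, between whose members reads can be shared.

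Transcription and RNA regulators, *Pnldc1* and *Lhx6* among them, had the lowest median ratio of the groups. *Nr0b2*, the small heterodimer partner SHP, an orphan nuclear receptor that represses bile acid synthesis, had 313, 362 and 289 counts in TBG-Vec mice and 155, 182 and 227 counts in TBG-*Zrsr1* mice. Here mouse 1 was the lowest, and without mouse 2 the ratio was 59.4% instead of 58.5%. *Klf11*, a Krüppel-like factor, had 153, 195 and 126 counts against 88, 96 and 106, also with mouse 1 the lowest. *Rxrg*, a retinoid X receptor that pairs with other nuclear receptors, had 50, 49 and 46 counts against 19, 23 and 30. *Nr0b2*, *Klf11* and *Rxrg* thus had their lowest count in mouse 1, and in each the groups stood apart, as in nearly all listed genes. *Rfx4*, of the regulatory factor X family, was at 48.1%, the ETO family corepressor *Cbfa2t3* at 59.6%, and *Rest*, a repressor of neuronal genes, at 66.4%. The list of zinc finger proteins and other transcription factors had 11 genes in the table, with 4 called lower and 2 called higher (all genes 42.0% and 18.7%). Of the 8 genes in this functional group, 7 were still below 2/3 without mouse 2.

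Genes of the cell cycle and DNA maintenance lay between 60.5% and 66.4% of the TBG-Vec mean and had few counts. *E2f1*, a transcription factor of S-phase entry, had 44, 57 and 57 counts in TBG-Vec mice and 33, 28 and 41 counts in TBG-*Zrsr1* mice. *Mcm6*, a subunit of the replicative helicase, had 55, 43 and 52 counts against 32, 24 and 41. The groups were separated by 3 counts for *E2f1* and by 2 for *Mcm6*. *Xrcc3*, of recombination repair, was at 66.4%, *Tert*, the telomerase reverse transcriptase, at 60.5%, and *Nup37*, of the nuclear pore, at 64.6%. In the list of cell cycle and replication genes 3 were in the table, and 2 of them were called lower (all genes 42.0%). *Tyms*, thymidylate synthase, was the other at 72.1%. Of the list of RNA splicing and processing genes 3 were in the table. *Pnldc1* was called lower, *Zrsr1* was called higher and *Mov10*, an RNA helicase, was not called (all genes 42.0% and 18.7%). *Pklr* was the member of 2 lists, of which lipogenesis and LXR targets also held *Lipg*, endothelial lipase, at 68.2% and not called, and glucose and insulin signalling held *Socs3*, called higher. The list of sex-biased genes regulated by growth hormone held *Raet1d* beside *Acot3* and *Acot4*, all 3 called lower (all genes 42.0%), of which *Acot3* and *Acot4* were set aside by name. That list left out the major urinary protein genes *Mup1*, *Mup9* and *Mup17*, named here after their values were seen. They were called higher, with log2 ratios of 1.42, 3.18 and 1.75, so nothing is read from the list as a whole.

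Immune and secreted genes included several of low level. The list of immune and interferon genes had 9 in the table, with 4 called lower and 5 called higher (all genes 42.0% and 18.7%). The 4 are among the 90 genes. The higher ones included *Cd163* and *Fcgr4*, both known from macrophages and picked after their values were seen. *Fcgr4*, also outside the macrophage markers, had 26, 45 and 33 counts against 48, 51 and 59. Beside *Raet1d* and *Tlr12*, the lower ones were *Tnfrsf19*, a receptor of the tumour necrosis factor family, and *Trim80*, a tripartite motif protein. *Tnfrsf19* had 52, 63 and 50 counts in TBG-Vec mice and 36, 19 and 38 counts in TBG-*Zrsr1* mice. *Trim80* had 47, 36 and 38 counts against 22, 23 and 23. Mouse 2 stood well below the others in *Tnfrsf19*, while in *Trim80* the 3 TBG-*Zrsr1* mice had nearly the same count. *F3*, tissue factor, which starts coagulation, had 44, 43 and 35 counts against 21, 29 and 31. The serine protease *Prss8*, prostasin, was at 49.3%, *Cdcp1*, a CUB-domain membrane protein, at 58.0%, and *Faim*, an inhibitor of Fas-mediated apoptosis, at 63.2%. *Lacc1*, a purine nucleoside enzyme of macrophages, and *Tm4sf1*, a tetraspan membrane protein, were at 65.7% and 66.0%.

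The list of solute carriers and ABC transporters had 10 genes in the table, 4 called lower and 3 called higher (all genes 42.0% and 18.7%). *Slc17a4*, an organic anion transporter, had 394, 381 and 346 counts in TBG-Vec mice and 273, 174 and 271 counts in TBG-*Zrsr1* mice. *Slc16a11* had 175, 168 and 196 counts against 138, 102 and 118. *Slc44a3*, a choline transporter-like protein, had 105, 123 and 110 counts against 80, 47 and 77. *Slc17a4* and *Slc44a3* shared a pattern in which mice 1 and 3 were near equal and mouse 2 was far lower. *Slc18a1*, a vesicular monoamine transporter, was at 59.3%, and *Hps1*, needed for lysosome-related organelles, at 61.0%. In all 7 genes of this functional group, *Mmd2* and *Tmem254c* included, mouse 2 was the lowest.

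Signalling and adhesion genes made the largest group. *Ppp2r5a*, a regulatory subunit of protein phosphatase 2A, had 1543, 1847 and 1498 counts in TBG-Vec mice and 1111, 977 and 1079 counts in TBG-*Zrsr1* mice. This was the most often counted gene of the group and its TBG-*Zrsr1* mice spread little. *Cntnap1*, a contactin-associated protein of myelinated axons, had 70, 55 and 78 counts against 42, 19 and 32, the lowest ratio of the group at 45.8%. Ligands and guidance genes were *Ntn3*, netrin 3, at 54.7%, *Sema5b*, a semaphorin, at 55.5%, *Pdgfc*, a platelet-derived growth factor, at 64.8%, and *Efna5*, ephrin A5, at 66.1%. The intracellular regulators *Rcan2* of calcineurin, *Plekhg5*, a guanine nucleotide exchange factor, and *Pmepa1* of TGF-β signalling were at 56.5%, 60.6% and 61.6%, and the trafficking chaperone *Unc119* was at 63.1%. The ion channel genes *Hcn3* and *Chrnb2*, a pacemaker channel and a nicotinic receptor subunit, were at 57.7% and 59.2%. The actin-binding *Synpo* and the adhesion genes *Igsf11* and *Tenm3* were at 59.5%, 61.8% and 62.9%. The list of receptors, kinases and signalling genes had 8 in the table, with 3 called lower, *Ppp2r5a*, *Pdgfc* and *Efna5*, and 3 called higher (all genes 42.0% and 18.7%).

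The deubiquitinase gene *Usp20* had 55, 67 and 77 counts in TBG-Vec mice and 43, 44 and 42 counts in TBG-*Zrsr1* mice, and the ubiquitin ligase gene *Herc3* was at 61.4%. *Ppic*, cyclophilin C of the endoplasmic reticulum, was also at 61.4%. The list of ubiquitin and protein turnover genes had 8 in the table, with 4 called lower and 1 called higher (all genes 42.0% and 18.7%). Among genes of the cilium, *Tctn1*, of the ciliary transition zone, had 43, 47 and 46 counts against 39, 22 and 28, and mouse 1 came within 4 counts of the TBG-Vec mice. *Odf3b* was at 62.2%, *Morn2* at 64.8%, and *Dlec1*, a cilium-associated gene, at 63.4%. *Maged2* and *Klhdc8b* were at 55.2% and 60.9%.

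Of the non-coding and predicted genes, *A330041J22Rik* had the most counts, with 322, 372 and 293 in TBG-Vec mice and 197, 111 and 208 in TBG-*Zrsr1* mice. *4931408D14Rik*, a long non-coding RNA, had 134, 168 and 119 counts against 78, 58 and 92, and the unnamed gene *1700037H04Rik* had 76, 76 and 67 counts against 51, 33 and 37. *Gm35724* had 86, 96 and 69 counts against 52, 56 and 55. In the first 3 of these mouse 2 was the lowest, and in *Gm35724* the TBG-*Zrsr1* mice were near equal. *Gm30967* was at 56.2%, *LOC102631930* at 57.0%, *Gm3704* at 58.9%, *Gm31333* at 60.4% and *Gm36172* at 60.8%. *LOC108167751* was at 62.3%, *Gm39606* at 64.3% and *LOC108167522* at 65.5%. The microRNA gene *Mir762* had 24, 30 and 33 counts against 15, 14 and 23. It lies wholly inside *Bcl7c* on the opposite strand, and libraries enriched for polyadenylated RNA do not report mature microRNA, so these counts cannot be told apart from those of *Bcl7c* transcripts. The mature sequence, from RefSeq at chr7:127708534-127708555 on the plus strand of GRCm38.p6, is shown with its seed (bases 2 to 8) in capitals to identify the gene that was counted.
mmu-miR-762: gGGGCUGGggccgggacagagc

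Across the 90 genes, TBG-*Zrsr1* mouse 2 had lower unscaled counts than the other mice of its group. It had the lowest count of the 3 in 67 genes (74.4%), mouse 1 in 10 and mouse 3 in 9, with 4 ties, whereas in the TBG-Vec mice the lowest count was spread over the mice as 29, 28 and 31. The median gene was at 64.5%, 51.0% and 63.3% of the TBG-Vec mean in mice 1, 2 and 3. Summed over the 90 genes, the counts were 28777, 30876 and 30172 in TBG-Vec mice and 20611, 16202 and 19579 in TBG-*Zrsr1* mice. Among the 65 higher genes the median was 165%, 163% and 168% in the same order. Mouse 2 is part of the mean by which those genes were higher, so nothing is read from these medians. Over all 257 genes mouse 2 was the lowest of its group in 158 (61.5%). In the 102 other lower genes mouse 2 was the lowest in 72. The gene-wise coefficient of variation had a median of 12.7% over the TBG-Vec mice and of 19.5% over the TBG-*Zrsr1* mice. Mouse 2 was the lowest in 39, 39 and 32 of the 90 genes with DESeq2 size factors, TMM and equal totals. The cause of its lower counts was not tested.

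Leaving out mouse 2 took the number of genes meeting the rule from 90 to 54, of which 53 were among the 90, and the median of the 90 genes to 64.5%. In 31 genes mouse 2 was below 70% of the mean of mice 1 and 3, as in *Raet1d* with 37.5% and *Gm31333* with 48.1%. In 12 genes it lay above that mean, as in *Entpd2*, *Odf3b*, *Morn2* and *Nup37*, and these 6 examples were picked after their values were seen. *Nup37* had 18, 28 and 18 counts in TBG-*Zrsr1* mice, so its mouse 2 was the highest of the group. With each of the 6 mice left out in turn, 39 of the 90 genes stayed below 2/3 every time.

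Rescaling the libraries over the listed genes, most of which were lower, raised the median log2 ratio of all listed genes by 0.40 to 0.52 and brought most of the 90 genes above 2/3 of the TBG-Vec mean. Since all 90 were chosen at a log2 ratio of −0.59 or lower, a shift of this size could not turn their direction, and nothing is read from their staying lower. Below 2/3 under each scaling were the 11 genes with the lowest ratios, and these 11 were also below 2/3 with each mouse left out. They were *Pnldc1*, *Raet1d*, *Gm31522*, *Mmd2*, *Gm30692*, *Wfdc2*, *Tmem254c*, *Dcaf12l1*, *Lhx6*, *Tlr12* and *Cntnap1*. The well-counted genes *Uroc1*, *Pklr*, *Dlec1*, *Ppp2r5a* and *Hoga1* were not among them. The ratios that chose the genes largely set which ones these were, so nothing is read from the list. The depth of the libraries is unknown, since the table holds selected genes only.

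Positions and neighbours were taken from the GENCODE M39 annotation of GRCm39. It held 83 of the 90 genes, 81 by the same symbol and 2 by an older one, and of these 74 are protein-coding and 8 are long non-coding RNAs. They lie on 20 chromosomes, with 8 genes on chromosome 3, the most on any. The median GC content of the canonical transcripts was 52.4% and their median length 2970 bases with 8 exons. The 82 matched lower genes at or above the threshold had 52.8%, 3250 bases and 9 exons, so the 90 genes did not stand far from them in makeup.

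Several of the genes overlap another listed gene. *Dlec1* (chr9:118931532-118977314, plus strand) runs tail to tail into *Acaa1b*, a peroxisomal thiolase gene on the minus strand, and the annotations share 224 bases. *Dlec1* had 3219, 3883 and 4608 counts in TBG-Vec mice and 2632, 1953 and 2840 in TBG-*Zrsr1* mice, and *Acaa1b* had 20672, 23577 and 25491 against 16211, 10662 and 16821. *Dlec1* was thus at 15.6%, 16.5% and 18.1% of *Acaa1b* in the TBG-Vec mice and at 16.2%, 18.3% and 16.9% in the TBG-*Zrsr1* mice. The ratio of the pair was nearly the same in all 6 mice while both genes were lower in TBG-*Zrsr1* mice. *A330041J22Rik* (chr9:86577513-86583306, plus strand) overlaps the 5′ end of *Me1*, the malic enzyme gene on the minus strand, by 592 bases. Its count was between 7.64% and 9.16% of that of *Me1* over the 6 mice, again with no separation between the groups. Both *Hcn3* (chr3:89053381-89067544, minus strand) and *Pklr* (chr3:89043449-89054619, plus strand) are among the 90 genes, and their 3′ ends share 1239 bases. *Hcn3* had 378, 482 and 406 counts in TBG-Vec mice and 290, 187 and 254 counts in TBG-*Zrsr1* mice, which is 7.82%, 7.80% and 9.55% of *Pklr* in the former and 7.68%, 6.10% and 7.63% in the latter, without overlap.

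Tail-to-tail overlaps also join *Ppp2r5a* with *Tmem206* by 953 bases and *Acot11* with *Fam151a* by 8836 bases. *Tmem206* and *Fam151a* were lower too, at 67.1% and 72.3%. *Tmem206* was at 48.6% to 59.0% of *Ppp2r5a* and *Fam151a* at 33.1% to 55.4% of *Acot11*, and in both pairs the ratios of the groups overlapped. *Pyroxd2* and *Hps1* are neighbours on the minus strand of chromosome 19, 1652 bases apart. *Hps1* was at 33.6%, 40.7% and 30.5% of *Pyroxd2* in TBG-Vec mice and at 42.5%, 41.0% and 44.8% in TBG-*Zrsr1* mice, so that here the ratios of the groups did not overlap. By the RefSeq gene order, *LOC108167751* overlaps *Capn2*, which is also in the table, *Gm30967* overlaps *Nln* and *Gm3704* overlaps *Stard13*, while *Odf3b* lies within 50000 bases of *Tymp*. In all, 15 of the 83 annotated genes had 20% or more of their exonic bases under another annotated gene. *Slc16a11* is covered to 92.2% by *Slc16a13* on the opposite strand, *Tymp* to 80.9% by *Sco2* on the same strand, and *Xrcc3* to 43.4% by *Klc1*. Whether reads were counted by strand is not given, so reads of such neighbours cannot be told apart.

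**Figure D3:**
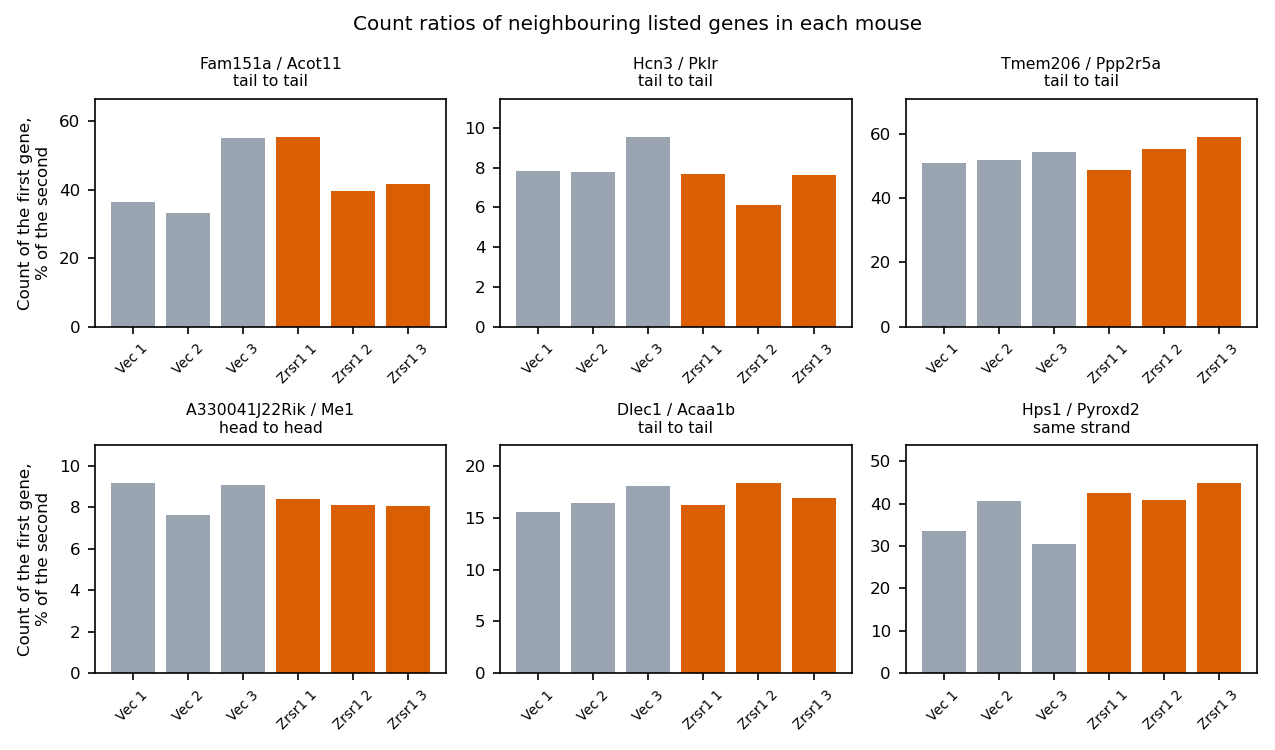
For each pair of neighbouring listed genes, the bars give the count of the first gene as a percentage of that of the second in each mouse, in grey for TBG-Vec and orange for TBG-Zrsr1 mice. Dlec1 stays between 15.6% and 18.3% of Acaa1b, and A330041J22Rik between 7.64% and 9.16% of Me1.

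The window of *A330041J22Rik* from 250 bases before to 50 after its RefSeq start is printed because the gene begins head to head with *Me1* and the counts of the pair kept a near-constant ratio. It lies at chr9:86695192-86695491 on the plus strand of GRCm38.p6, and capitals mark the GC box (GGGCGG on either strand).
A330041J22Rik: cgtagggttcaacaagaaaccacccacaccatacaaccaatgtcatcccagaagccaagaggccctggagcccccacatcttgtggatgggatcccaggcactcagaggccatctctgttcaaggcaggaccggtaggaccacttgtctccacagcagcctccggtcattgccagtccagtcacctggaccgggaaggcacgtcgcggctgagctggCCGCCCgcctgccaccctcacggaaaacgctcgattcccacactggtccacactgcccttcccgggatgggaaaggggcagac

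Because ZRSR1 acts on minor introns, the annotated introns of the 90 genes were searched for U12-type signals. An intron was counted when it began with ATATCCTT or GTATCCTT and had, in its last 40 bases, a run within 1 mismatch of the branch site CCTTAAC. Of the 82 genes with an intron, 2 held such an intron (2.44%), against 2 of 157 other listed genes (1.27%) and 478 of 20533 protein-coding genes (2.33%). The share was thus close to that of all protein-coding genes, but 2 genes are too few to tell a difference. The 82 genes also include long non-coding RNAs, which the protein-coding set does not. The 2 genes were *E2f1*, with an intron of 1476 bases at chr2:154403382-154404857 on the minus strand, and *Tctn1*, with an intron of 906 bases at chr5:122384689-122385594 on the minus strand. Whether these introns were retained was not tested, as counts per gene do not separate introns from exons. The first 20 and the last 40 bases of both introns, read from GRCm39, are printed because they carry the signals, with the 5′ site and the branch site in capitals.
E2f1, start: ATATCCTTggattggtcagg
E2f1, end: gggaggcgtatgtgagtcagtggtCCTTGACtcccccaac
Tctn1, start: GTATCCTTttggaggtccgc
Tctn1, end: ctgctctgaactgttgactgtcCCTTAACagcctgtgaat
*Morn2* was added when the 5′ site alone was required, and *Hps1* when 1 mismatch was allowed there, each giving 3 genes.

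Promoter windows in the RefSeq table, 300 bases on GRCm38.p6, were found for 71 of the 90 genes, as 97 windows. The nuclear receptor motif AGGTCA, searched on both strands like all that follow, was in 13.4% of them, in 16.9% of those of the other listed genes and in 16.3% of all windows. As a direct repeat with a spacer of 4 bases, the form bound by LXR, or of 1 base, the form bound by PPAR, it was in 0 of the 97 windows, and in 0.0152% and 0.0396% of all windows. The sterol regulatory element TCACNCCAC was also in 0, against 1.24% of all windows. The E-box CACGTG was in 6.19% and 7.15%, the STAT motif TTCNNNGAA in 8.25% and 8.30%, and the TATA box TATAAA in 11.3% and 13.6%, of the windows of the 90 genes and of all windows in turn. The GC box GGGCGG was in 59.8%, against 53.5% in the other listed genes and 35.7% in all windows. The windows of the 90 genes had a median GC content of 57.7%, those of the other listed genes 60.3% and all windows 52.7%. TGACNNNGC, the core of the antioxidant response element, was chosen after the names of the genes were known. It was in 13.4% of the 97 windows and 12.4% of all, and in 1 of the 5 windows of the 4 redox genes, that of *Srxn1*, where it overlaps an AGGTCA. These matches are descriptions of letters in a window and are not binding sites.

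The window of *Nr0b2* is printed as that of a nuclear receptor gene in which mouse 2 did not set the ratio. It lies at chr4:133553126-133553425 on the plus strand of GRCm38.p6, with the E-box, the STAT motif and the TATA box in capitals.
Nr0b2: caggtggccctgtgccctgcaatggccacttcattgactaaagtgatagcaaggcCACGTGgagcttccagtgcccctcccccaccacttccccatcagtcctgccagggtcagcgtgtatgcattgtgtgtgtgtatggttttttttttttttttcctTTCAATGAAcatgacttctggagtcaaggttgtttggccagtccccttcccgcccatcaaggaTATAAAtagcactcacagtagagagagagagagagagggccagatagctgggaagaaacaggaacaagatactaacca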

How the data were processed

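The authors deposited 1 table of whole-number counts for 257 genes in 6 livers. The methods of the study name FastQC, HISAT2 on GRCm39, HTSeq and DESeq2, whereas the submitters' processing notes name mm10, Bowtie2, RSEM 1.3.1 and DESeq2 1.4.5. Scaling, annotation and strand setting are not stated. The methods call a gene altered at an adjusted p under 0.05 with an absolute fold above 1.5, and whether this rule chose the 257 genes is not stated. On the counts as deposited, 108 genes were called lower and 48 higher at both thresholds with edgeR. The authors' columns of means, fold changes and p-values were not used. Depth is unknown, since the sums per mouse, from 174448 to 283414, cover selected genes, and libraries were therefore not rescaled. All calls are within genes selected on the same 6 mice.

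Counts were tested with edgeR 4.0.16 (R 4.3.3, quasi-likelihood, equal library sizes, filterByExpr, which removed 0 genes), with Benjamini-Hochberg adjustment over 257 genes and both thresholds of the study. The fit was tested on data simulated at equal depth with as many genes raised as lowered, so the choice of scaling was not tested by it. Alternatives were DESeq2 1.42.0, limma 3.58.1 on log-transformed counts with a pseudocount of 1, other scalings, filters and thresholds, the replicate number as a block and each mouse left out.

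Given with per-mouse counts or ratios were the 10 genes with the lowest ratio, 3 on either side of the threshold, the 5 with the most counts in TBG-Vec mice, up to 4 per gene list, each with a U12-type intron and *Zrsr1*, 48 in all, of which 47 are named. Others were named by function or chosen after their values were seen. The genes and lists were chosen with earlier results of these data known. Introns of at least 60 bases (GENCODE M39, GRCm39) and promoters (RefSeq, GRCm38.p6) were read with Python 3.11.15.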

Additional observations from a re-analysis of the deposited data

How the results depend on the processing

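Percentages in parentheses are the share of all genes tested that was called lower under the same setting. With DESeq2 size factors, TMM and equal totals over the listed genes, 12, 11 and 15 genes met the rule in place of 90, and the edgeR test called 11, 9 and 14 of the 90 genes lower (5.06%, 3.89% and 6.61% of all 257). DESeq2's Wald test with its own size factors called 10 (4.67% of all), and with equal size factors 90 (42.0%). Over the whole table, 69.2% of called genes were lower without rescaling (108 lower, 48 higher), and 16.7%, 13.3% and 20.7% with those scalings. With DESeq2's own factors it was 15.6%. Because most listed genes were lower, these factors remove part of that difference by construction, whether it came from depth or from the RNA. Which of these it was cannot be told. Mouse 2 was the lowest TBG-*Zrsr1* mouse in 39, 39 and 32 genes in place of 67.

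A ratio below 1/2 was met by 15 genes, and 13 had every TBG-*Zrsr1* mouse below 2/3 of the lowest TBG-Vec mouse. A fold above 2 left 15 calls (7.39% of all genes), and a mean of at least 50 counts left 49 genes to test, all 49 called (35.2% of all tested). With 1 mouse left out, 54 to 108 genes met the rule and 53 to 85 of the 90 were called (26.1% to 50.6% of all genes). The lowest values, 54 and 53, came without TBG-*Zrsr1* mouse 2. Group medians and geometric means gave 79 and 86 genes, and limma called 86 (40.5% of all genes). The U12 and promoter shares stayed within 1.5 times or their 95% binomial interval. Of 144 log2 ratios of named genes under the scalings, 127 moved by at least 1 SD between mice.

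With the replicate block 89 of the 90 genes were called (41.6% of all genes). Mice that share a number are not the same animal, and across genes their deviations from the group means correlated at −0.107, 0.0311 and 0.0548. The causes of the differences between settings were not tested. Depth is unknown.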
